A study of Rattus norvegicus with 8 samples.

Results

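Proteasome genes were examined in primary cultures of hepatocytes, the main cell type of the liver, that had been exposed briefly to the toxic metal cadmium as its chloride. Cells were obtained from the livers of 4 rats by enzymatic perfusion, plated on collagen and kept overnight in medium without albumin. From each rat 1 culture then received 4 µM cadmium chloride for 3 h and 1 received medium only, and the total RNA of each culture was read on 1 Affymetrix RAE230A array. This gave 4 control and 4 cadmium arrays, and the labels give neither strain nor sex nor age. Genes were taken whose symbol on the array platform begins with Psma, Psmb, Psmc, Psmd, Psme, Psmf or Psmg followed by a number. The pattern matched 43 of 10411 genes with a symbol of their own, and 41 of them are subunits or factors of the proteasome, read by 44 probe sets. A probe set is the group of array features that reads 1 transcript and gives 1 signal in linear units, and where a gene had several the one with the highest mean log2 signal over all 8 arrays was used. The other 2 matches, Psmc3ip and Psme3ip1, are no subunits and are described last. Of 48 proteasome genes listed by class, Psma8, Psmb6, Psmb11, Psmc6, Psmd12, Psmd14 and Psme3 were not analysed here. Of these, Psmb6 and Psme3 share probe sets with other symbols, whose values are given apart.

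The proteasome is the protease that degrades proteins tagged with ubiquitin. Its core particle is a barrel of alpha rings, which gate the entrance, and beta rings, which hold the proteolytic sites. A regulatory particle caps the barrel: ATPases in its base unfold the substrate and thread it in, and its lid removes the ubiquitin chain. Cells whose proteasome is inhibited are known to raise transcription of the subunit genes together through NRF1, the product of Nfe2l1, which acts on antioxidant response elements in their promoters.

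Hepatocyte markers such as albumin were bright in both groups, and the summed signal of 9 of them lay between 103025 and 117560.0 in controls and between 104937 and 120186 after cadmium. Endothelial (3 genes) and lymphocyte markers (5 genes) all lay under the filter, which removed the dimmest 40% of the array by mean signal, with summed signals of at most 153 and 190.1 on any array. Macrophage markers (8 genes, 5 of them under the filter) summed to between 1626 and 3270.0 in controls and between 1454 and 3722 after cadmium, with Cd68 and Lyz2 the brightest. The stellate cell markers (8 genes, 5 of them under the filter) summed to between 1589.6 and 2379 in controls and between 1203 and 1819 after cadmium, with differences in both directions among them. Of the 3 tested, Col1a1 and Acta2 did not pass (log2 change 0.30 and 0.062), and Reln fell (log2 change -1.09 ± 0.14; limma adjusted p = 0.00331, and 0.0933 without the rat as a block, where the call ended). The mean differences of the 5 under the filter ran from -1.53 to 0.76. Of the cholangiocyte markers, Krt19 and Krt7 lay under the filter, while Epcam was read at 1662 to 2659 in controls and 1068 to 2525 after cadmium (log2 change -0.13; limma adjusted p = 0.625), and the 3 summed to between 1717 and 2704 in controls and between 1103 and 2591 after cadmium. The part of these cells in the results was not tested. The median signal of an array was 194 ± 2.4 in controls and 184 ± 2.88 after cadmium (mean ± SD, n = 4 each; lower after cadmium in 4 of 4 rats, exact two-sided permutation p = 0.125 with labels exchanged within rats, the smallest that 16 assignments allow). Arrays of rats 1 and 2 came from chip lot 2 and those of rats 3 and 4 from lot 1, and the arrays of a rat shared a scan day. All control arrays ran on module 1 of the fluidics station and all cadmium arrays on module 2, so module and treatment cannot be told apart.

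All 41 proteasome genes passed the filter, with mean signals from 475 (Psmd10) to 11807 (Psma6), and 34 had a mean signal of at least 1000. Cadmium and control were compared within rats with limma, on differences of log2(signal + 1). After 3 h the differences were small: fitted log2 changes ran from -0.15 in Psmg2 to 0.54 in Psma3. Their median was 0.062, beside -0.06 over all 7099 tested genes and -0.03 over the 1963 of these with a mean signal of at least 1000. A fitted change above 0 was found in 31 of 41 proteasome genes, beside 38.4% of all tested genes, and in 24 of 41 after quantile normalization and 39 of 41 after centring each array on its median. Under those scalings the median was 0.054 (all tested genes -0.038) and 0.14 (all tested genes 0.018).

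At an adjusted p of 0.05 a single proteasome gene rose, the ATPase gene Psmc2. That is 2.44% of the 41, where 2.73% of all tested genes rose and 4.94% changed in either direction. Of the 1963 tested genes with a mean signal of at least 1000, called bright here, 96 rose. None of the 41 fell (limma), where 2.21% of all tested genes and 35 of the 1963 bright genes did. None was lower at an unadjusted p under 0.05, where 13.0% of all tested genes and 198 bright genes were. At that threshold 9 of 41 were higher, beside 7.4% of all tested genes and 202 bright genes. A difference above 0 in 4 of 4 rats was found in 11 of 41 genes (all tested genes 9.62%, bright genes 263 of 1963). No gene had all cadmium arrays below all control arrays (all tested genes 7.44%, bright genes 106 of 1963). In 4 genes, Psmc2, Psma5, Psma7 and Psmb7, all cadmium arrays lay above all control arrays (all tested genes 4.16%, bright genes 127 of 1963). The 95% interval of the fitted change stayed below a 1.5-fold rise in 38 of 41 genes and above a 1.5-fold fall in 41 of 41. These intervals are for single genes, without adjustment for the number of genes, and hold for the deposited scaling. The share over all tested genes was not computed, so these counts are not particular to the proteasome genes.

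**Figure D1:**
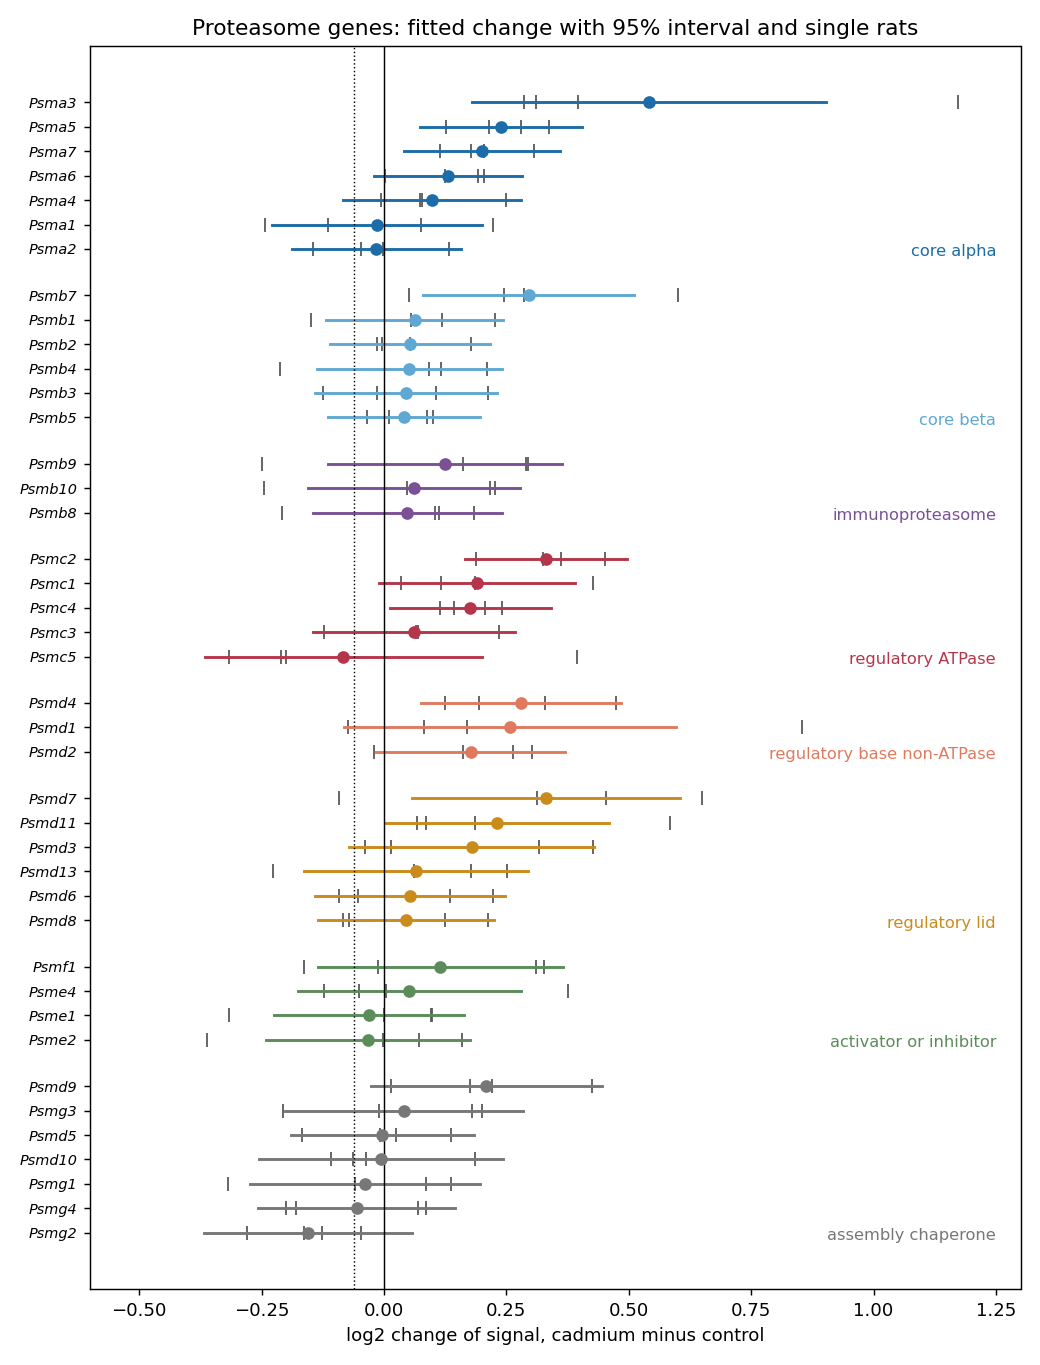
Fitted log2 change of signal (cadmium minus control, x axis) of the 41 proteasome genes with its 95% interval and the difference in each of the 4 rats, coloured by class. Psmc2 alone passed the threshold, and 31 of 41 fitted changes lie above 0 (24 of 41 after quantile normalization, 39 after median centring).

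Among the ATPases of the regulatory particle, the ring that unfolds substrates, Psmc2 rose. Its signals, given here and below in the order of rats 1 to 4, were 5732, 5716, 5729 and 5458 in controls and 7176, 7339, 6524 and 7463 after cadmium. Every cadmium array was above every control array, and the controls lay within 0.071 of each other on the log2 scale, the narrowest control range of the 41 genes. The log2 change was 0.33 ± 0.073 (SE, n = 4 rats), a 1.26-fold rise (limma adjusted p = 0.0364). The call ended after quantile normalization (log2 change 0.23; adjusted p = 0.125), without the filter (adjusted p = 0.0782), without a variance trend (adjusted p = 0.141) and without rat 1, 2 or 3 (adjusted p = 0.133, 0.156 and 0.0988). It held without rat 4 (adjusted p = 0.0346), and the log2 change was 0.32 within chip lot 1 and 0.34 within lot 2 (2 rats each; adjusted p = 0.43 and 0.0805). The promoter of Psmc2 is printed as that of the gene that passed, from 250 bases before to 50 bases after the annotated start (RefSeq, build GRCr8, chr4:14162341-14162640, minus strand, written 5′ to 3′ along the gene). Capitals mark matches to TGANNNNGC, a short form of the antioxidant response element.
Psmc2: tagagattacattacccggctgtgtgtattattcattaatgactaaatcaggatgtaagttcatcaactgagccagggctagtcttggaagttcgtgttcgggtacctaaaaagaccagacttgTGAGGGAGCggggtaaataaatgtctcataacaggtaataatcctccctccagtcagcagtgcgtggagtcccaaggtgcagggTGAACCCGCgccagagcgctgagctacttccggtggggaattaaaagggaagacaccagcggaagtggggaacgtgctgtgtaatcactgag

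The other 4 ATPase genes did not pass. Psmc1 and Psmc4 were higher in 4 of 4 rats with overlapping groups, with a log2 change of 0.19 ± 0.088 in Psmc1 (adjusted p = 0.266) and 0.18 ± 0.072 in Psmc4 (adjusted p = 0.215). Psmc3 had a log2 change of 0.062. Psmc5 had one of -0.083, and was lower in rats 1, 2 and 3 and higher in rat 4 (difference 0.40).

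The base also holds the scaffold subunits Psmd1 and Psmd2 and the ubiquitin receptor Psmd4. Psmd4 had signals of 1688, 2049, 1584 and 1774 in controls and 1840.4, 2575, 1811 and 2462 after cadmium. Its cadmium culture was higher in each rat, with groups that overlapped, and the log2 change was 0.28 ± 0.089 (adjusted p = 0.122). In Psmd1, singled out after its values were seen, the 4 rats differed by -0.074, 0.17, 0.081 and 0.85, and the log2 change of 0.26 ± 0.15 (adjusted p = 0.377) was 0.059 without rat 4. For Psmd2 it was 0.18 ± 0.085 (adjusted p = 0.284).

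In the lid, 6 genes were read and none passed. All 6 had a fitted change above 0, except that Psmd8 lay below 0 after quantile normalization. The largest was that of Psmd7, a partner of the deubiquitinating subunit. Its signals were 1460.4, 2158, 1731 and 1598 in controls and 1999.9, 2025, 2152 and 2508 after cadmium. The cadmium culture was lower in rat 2 and higher in the other rats, the groups overlapped, and the log2 change was 0.33 ± 0.12 (adjusted p = 0.166). Psmd11, also singled out after its values were seen, had a log2 change of 0.23 ± 0.10 (adjusted p = 0.239): the difference was 0.58 in rat 4 and 0.067 to 0.19 in the others. Its dimmer probe set gave 0.18 ± 0.13 (adjusted p = 0.51). The log2 changes of Psmd3, Psmd6, Psmd8 and Psmd13 were 0.18, 0.053, 0.045 and 0.066.

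In the alpha rings, which gate the core particle, 7 genes were read and none passed. Psma3 had the largest fitted change of the 41 genes. Its signals were 557, 530.1, 379 and 401 in controls and 680.2, 658, 499.5 and 905 after cadmium. The cadmium culture was higher in each rat, by 0.29 to 0.40 in rats 1 to 3 and by 1.17 in rat 4, the groups overlapped, and the log2 change was 0.54 ± 0.16 (adjusted p = 0.0967). A brighter probe set that carries this symbol beside that of Psma3l, and was therefore not used, gave 0.097 ± 0.076 (adjusted p = 0.522). Psma2 had the lowest fitted change of the class. Its signals were 4772, 5048, 4517 and 4403 in controls and 4768, 4564, 4950.5 and 4261 after cadmium, with overlapping groups and a log2 change of -0.015 ± 0.076 (adjusted p = 0.932), which lay above 0 after median centring.

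Psma5 and Psma7 are named because their groups did not overlap, and were singled out after their values were seen. Psma5 had signals of 4145, 4699, 4257 and 3949.6 in controls and 5036, 5130.2, 4938 and 4991 after cadmium. The cadmium arrays lay closer together than the controls, and the log2 change was 0.24 ± 0.073 (adjusted p = 0.107, and 0.0454 after median centring, where it passed). Psma7 had signals of 5845, 5749.5, 5769.6 and 4938 in controls and 6732, 6220.1, 6522 and 6106 after cadmium. The control of rat 4 was the lowest, and the log2 change was 0.20 ± 0.07 (adjusted p = 0.15). The log2 changes of Psma1, Psma4 and Psma6 were -0.014, 0.098 and 0.13.

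The beta rings hold the proteolytic sites, which in the constitutive proteasome belong to Psmb5 (chymotrypsin-like), Psmb6 (caspase-like) and Psmb7 (trypsin-like). None of the 6 constitutive beta genes read passed. A probe set that carries the symbol of Psmb6 beside that of Psmb6l1 was not used for that reason. It gave a log2 change of -0.073 ± 0.11 (limma adjusted p = 0.767). Psmb7 had signals of 4814, 5022, 5218 and 4071 in controls and 5703, 6122, 5405 and 6177 after cadmium. The groups did not overlap, although the difference was 0.051 in rat 3 and 0.60 in rat 4, and the log2 change was 0.30 ± 0.095 (adjusted p = 0.122). Psmb5 had signals of 5918, 5737, 6283 and 5922 in controls and 6293, 6149, 6332 and 5781 after cadmium. Its groups overlapped, and the log2 change was 0.041 ± 0.068 (adjusted p = 0.781), with a 95% interval from -0.11 to 0.20. The non-catalytic Psmb1, Psmb2, Psmb3 and Psmb4 had log2 changes between 0.045 and 0.063, and these 4 genes and Psmb5 lay below 0 after quantile normalization. The promoters of the catalytic genes Psmb7 (GRCr8, chr3:42827421-42827720, minus strand) and Psmb5 (GRCr8, chr15:32047330-32047629, minus strand) are printed. These had the largest and the smallest fitted change of the 6 constitutive beta genes read. Capitals mark TGANNNNGC on either strand, and the match of Psmb5 also has the stricter form TGACNNNGC.
Psmb7: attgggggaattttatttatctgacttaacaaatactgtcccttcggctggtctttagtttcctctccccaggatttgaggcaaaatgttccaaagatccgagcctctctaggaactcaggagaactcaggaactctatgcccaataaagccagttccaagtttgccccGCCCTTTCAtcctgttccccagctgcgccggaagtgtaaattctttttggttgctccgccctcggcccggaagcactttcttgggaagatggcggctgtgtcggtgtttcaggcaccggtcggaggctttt
Psmb5: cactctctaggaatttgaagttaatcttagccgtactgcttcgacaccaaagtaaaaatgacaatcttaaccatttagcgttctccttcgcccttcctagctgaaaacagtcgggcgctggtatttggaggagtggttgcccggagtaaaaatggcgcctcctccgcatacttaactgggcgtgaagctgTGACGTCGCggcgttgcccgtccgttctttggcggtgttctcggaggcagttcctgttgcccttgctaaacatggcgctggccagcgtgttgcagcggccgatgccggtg

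**Figure D2:**
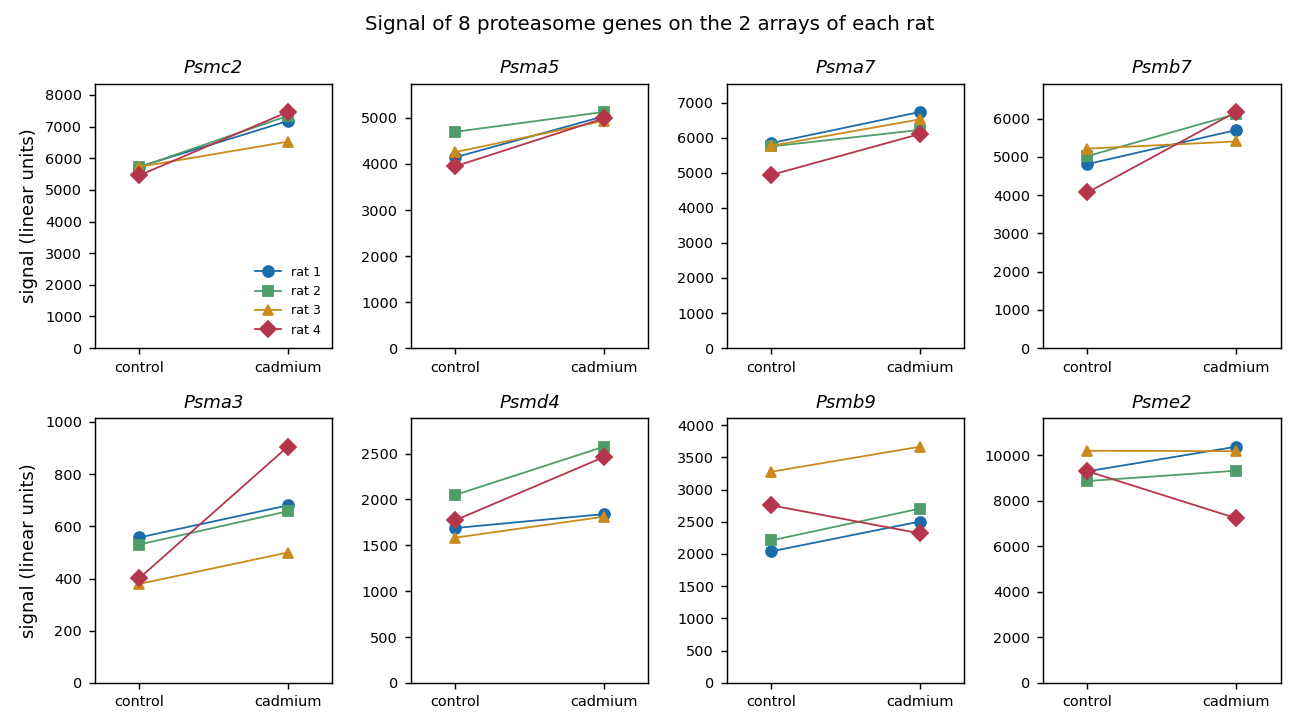
Signal in linear units (y axis, from 0) on the control and the cadmium array of each rat for 8 proteasome genes, with 1 line per rat. In Psmc2, Psma5, Psma7 and Psmb7 all cadmium arrays lie above all control arrays, while the other genes shown overlap.

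Core and regulatory particle were then compared. Fitted changes lay above 0 in 11 of 13 core genes and 13 of 14 regulatory genes, in 6 and 12 after quantile normalization, and in 13 and 13 after median centring. Their medians were 0.063 and 0.18, beside -0.06 over all tested genes. Taken rat by rat, the median difference of the core genes was 0.12, 0.11, 0.12 and 0.0022 in rats 1 to 4 (mean 0.088 ± 0.057, SD). That of the regulatory genes was 0.12, 0.076, 0.12 and 0.41 (mean 0.18 ± 0.15). In rat 4, 13 of 14 regulatory genes and 7 of 13 core genes were higher. The core genes of that rat were not alike: the median was 0.22 over the alpha genes, the highest of the 4 rats, and -0.024 over the beta genes, the lowest.

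Core minus regulatory was -0.0083, 0.037, 0.003 and -0.41 in rats 1 to 4, a mean of -0.094 ± 0.21 (SD, n = 4), which is smaller than its spread. The difference lay in rat 4. Without that rat the mean was 0.011, the regulatory mean was 0.11 and the core mean was 0.12. Within chip lot 1, which holds rat 4, core minus regulatory was -0.20, and within lot 2 it was 0.015. Over all tested genes the differences of rat 4 had an SD of 0.57, and those of the other rats had SDs of 0.41 to 0.45. The part of that spread in the result was not tested. The class medians carry no test.

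**Figure D3:**
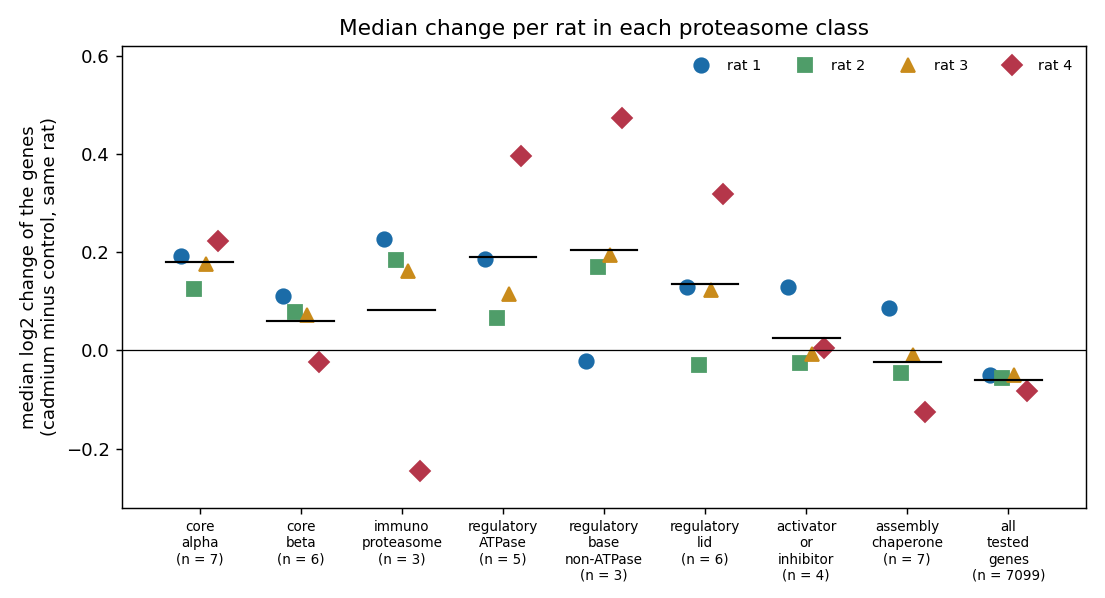
Median log2 difference over the genes of each class (y axis, cadmium minus control in the same rat), with 1 symbol per rat, the mean of the rats as a line and the number of genes under each class. Rat 4 is the highest in the 3 regulatory classes (0.32 to 0.47) and in core alpha (0.22), and the lowest in core beta (-0.024), the immunoproteasome genes (-0.25) and the assembly chaperones (-0.13).

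Immunoproteasome subunits replace the catalytic beta subunits in cells exposed to interferon, and the activator PA28, built from Psme1 and Psme2, opens the core without a regulatory particle. None of these 5 genes passed. Psmb8 had signals of 4281, 4454, 5211 and 5370.4 in controls and 4603, 5061, 5630.5 and 4647 after cadmium, a log2 change of 0.048 ± 0.085 (adjusted p = 0.796). Psmb9 had signals of 2040.5, 2211, 3276 and 2755 in controls and 2503, 2703, 3664 and 2319 after cadmium, a log2 change of 0.12 ± 0.11 (adjusted p = 0.558). Psmb10 had signals of 3606, 3950.0, 4084 and 3309 in controls and 4219, 4080.0, 4746 and 2790.2 after cadmium, a log2 change of 0.061 ± 0.095 (adjusted p = 0.767). In these 3 genes the groups overlapped, and cadmium cultures were higher in rats 1, 2 and 3 and lower in rat 4. Psmb8 and Psmb10 lay below 0 after quantile normalization.

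Psme2 had signals of 9296, 8869.8, 10202 and 9301 in controls and 10379, 9324, 10183 and 7239.7 after cadmium, with overlapping groups and a log2 change of -0.033 ± 0.092 (adjusted p = 0.877). Psme1 had a log2 change of -0.031 ± 0.085 (adjusted p = 0.88), and both lay above 0 after median centring. Of the 5 genes, 5, 5, 3 and 0 were higher in rats 1, 2, 3 and 4. Their median in rat 4 was -0.25, beside -0.082 over all tested genes. The interferon regulatory factor Irf1 was lower in 4 of 4 rats, as 20.0% of all tested genes were, with differences of -0.53, -0.25, -0.18 and -0.94 in rats 1 to 4. It was the only 1 of the 6 interferon and antigen presentation genes tested that was. Irf1 did not pass (limma adjusted p = 0.0823, and 0.415 without the rat as a block). Its part in the immunoproteasome values was not tested. Of the antigen presentation genes tested, the differences in rat 4 were -0.51 in the peptide-loading factor Tapbp, -0.20 in B2m, -0.14 and 0.0043 in the peptide transporter genes Tap2 and Tap1, and -0.035 in the peptidase gene Erap1. The hepatocyte markers had a median difference of -0.29 in rat 4 and of 0.065 to 0.16 in the others, and the macrophage markers of 0.0097 in rat 4 and of -0.26 to 0.062 in the others. The part of these markers in the immunoproteasome values was not tested, and fewer cells of a type and less RNA per cell cannot be told apart in such cultures.

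The remaining genes regulate or build the proteasome, and none passed. The inhibitor Psmf1 had signals of 1029.7, 1240.1, 1587 and 905 in controls and 1277, 1108, 1572 and 1135 after cadmium. Its groups overlapped, its control range of 0.81 on the log2 scale was the widest of the 41 genes, and the log2 change was 0.12 ± 0.11 (adjusted p = 0.609). The activator Psme4 (PA200) had a log2 change of 0.052 ± 0.10 on its brightest probe set and of -0.017 and 0.20 on its others. Psmd9, a chaperone of the ATPase ring, had signals of 819, 686, 719 and 770.3 in controls and 955, 776, 965 and 778 after cadmium. It was higher in 4 of 4 rats with overlapping groups, and the log2 change was 0.21 ± 0.10 (adjusted p = 0.301). Psmg2, which helps to form the alpha ring, had signals of 1081.4, 915.8, 928.7 and 865.2 in controls and 890.2, 886.7, 828.8 and 792.8 after cadmium. It was the only one of the 41 genes that was lower in 4 of 4 rats, as 20.0% of all tested genes were, with a log2 change of -0.15 ± 0.093 (adjusted p = 0.399). The chaperones Psmd5, Psmd10, Psmg1, Psmg3 and Psmg4 had log2 changes between -0.056 and 0.041, and all of these but Psmg3 changed sign after median centring.

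The control range of each gene was set beside its fitted change. The range of the 4 control cultures on the log2 scale had a median of 0.28 over the 41 genes, and the size of the fitted change had a median of 0.066. In 40 of 41 genes the change was smaller than the control range, the exception being Psmc2. The range spans single cultures, with culture and array noise in it, while the change is a mean over 4 rats. These are unlike measures, and the share over all tested genes was not computed. No proteasome gene passed an adjusted p of 0.05 for a difference between rats (moderated F test in limma with cadmium as a term; lowest adjusted p = 0.187, Psmb9), where 1.89% of all tested genes did.

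Promoter letters were searched on both strands because the subunit genes are known targets of NRF1. A promoter was matched for 39 of the 41 genes, all but Psma7 and Psmd6. TGANNNNGC was found in 20 of 39, in 8 of 12 core and 7 of 13 regulatory genes, and in 40.5% of all 33469 promoters of the same length. The stricter TGACNNNGC, contained in it, was found in 7 of 39 and 12.1% of all. The median log2 change was 0.095 in the 20 genes with TGANNNNGC and 0.048 in the 19 without. Within the regulatory particle it was 0.18 in both, and within the core particle it was 0.058 in the 8 genes with it and 0.042 in the 4 without. The paired heat shock unit GAANNTTC was found in Psmb9, Psmc3 and Psmd1 (8.59% of all promoters), and a run of 3 such units in 0 of 39 (0.798%). CCAAT was found in 20 of 39 (37.5%) and the ETS-type CCGGAAG in 12 of 39 (8.75%). The genes with the largest fitted changes, Psma3 (0.54), Psmd7 (0.33), Psmc2 (0.33) and Psmb7 (0.30), carry TGANNNNGC, and the next, Psmd4 (0.28), does not. This ranking was made after the values were seen. The brighter probe set shared by Psma3 and Psma3l gave 0.097. The part of the element in these changes was not tested. The promoter of Psmd4 is printed because its fitted change of 0.28 was the largest of the 19 genes without TGANNNNGC (GRCr8, chr2:185297152-185297451, minus strand).
Psmd4: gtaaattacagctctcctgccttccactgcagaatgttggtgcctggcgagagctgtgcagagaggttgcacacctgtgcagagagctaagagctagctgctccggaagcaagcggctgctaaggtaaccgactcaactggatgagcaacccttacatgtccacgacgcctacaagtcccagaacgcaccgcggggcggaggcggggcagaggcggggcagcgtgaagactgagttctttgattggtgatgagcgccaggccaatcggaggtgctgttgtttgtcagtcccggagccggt

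Of 40 listed genes that act around the proteasome without carrying the name pattern, 28 were tested and the rest were not analysed here. Of those tested, 4 rose and 1 fell, where 2.73% and 2.21% of all tested genes did, and the median log2 change was -0.014. The lists were chosen with earlier results of these data known, so these counts cannot be read against those shares. Zfand2a, an arsenite-inducible zinc finger protein that binds the regulatory particle, had signals of 1668, 851, 1007 and 1174 in controls and 16418, 18913, 16155 and 21134 after cadmium. It rose 15.8-fold (log2 change 3.99 ± 0.16; limma adjusted p = 1.99e-06). Zfand5, a relative known as a proteasome activator, had signals of 1318, 1067, 1067 and 1020.3 in controls and 3047, 2745, 2819 and 4584 after cadmium. It rose 2.90-fold (log2 change 1.53 ± 0.15; limma adjusted p = 0.000619). In both genes the groups lay far apart.

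Ubqln1, a shuttle factor that carries ubiquitinated proteins to the proteasome, had signals of 1728, 1562, 1544 and 1518 in controls and 2138, 2413, 2263 and 3421 after cadmium. It rose without overlap, most in rat 4 (log2 change 0.66 ± 0.13; adjusted p = 0.0257). Akirin2, which brings proteasomes into the nucleus, had signals of 702, 578, 588 and 496 in controls and 994, 838, 932 and 1076 after cadmium. It also rose without overlap (log2 change 0.70 ± 0.12; adjusted p = 0.0161). Nfe2l2 fell. Its product NRF2 also acts on antioxidant response elements. Its signals were 3149.8, 3397, 4113 and 4446 in controls and 2356, 2572, 2694 and 2025 after cadmium, without overlap (log2 change -0.64 ± 0.12; adjusted p = 0.0233). Nfe2l1, which encodes NRF1, had a log2 change of -0.056 ± 0.15 (adjusted p = 0.87) and was higher in 2 of 4 rats. Without the rat as a block the calls of Ubqln1, Akirin2 and Nfe2l2 held (limma adjusted p = 0.0299, 0.015 and 0.0271). The other alternatives were not examined for these genes.

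**Figure D4:**
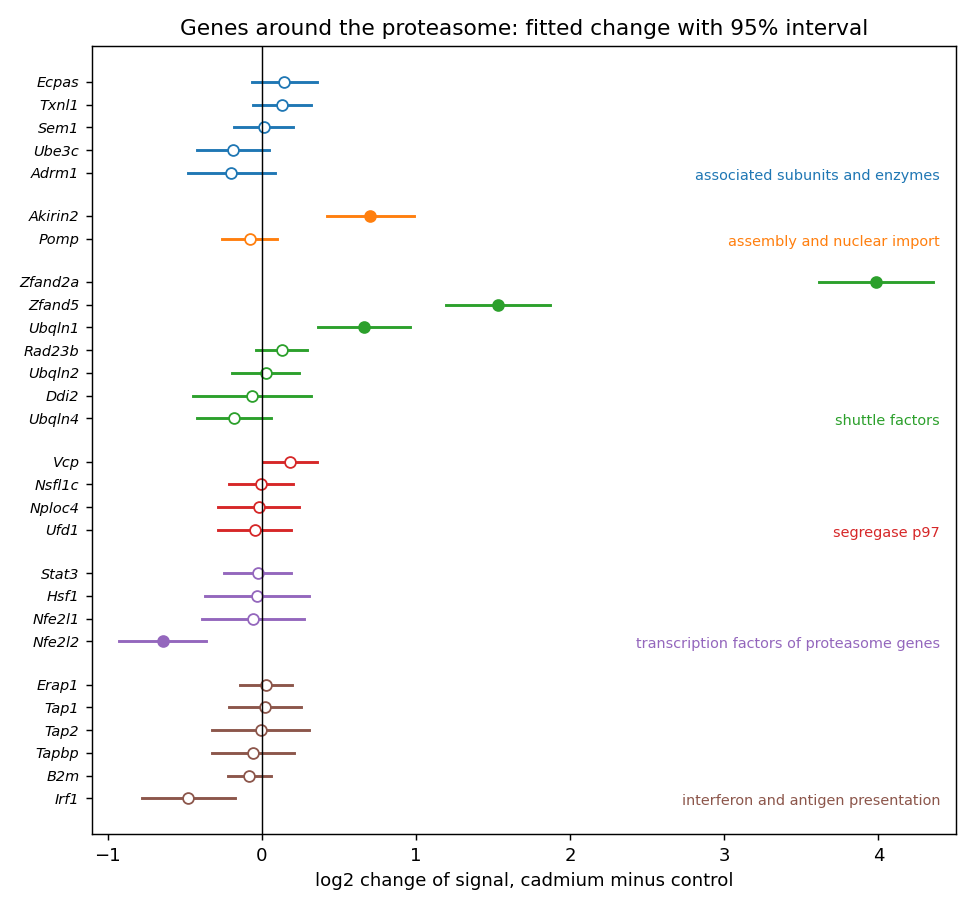
Fitted log2 change (x axis, cadmium minus control) with its 95% interval for the 28 genes around the proteasome, coloured by list. Filled symbols passed: Zfand2a, Zfand5, Akirin2 and Ubqln1 rose and Nfe2l2 fell at an adjusted p of 0.05.

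The genes that share only the name pattern were in the same fit. Psmc3ip, a recombination factor, was lower in 4 of 4 rats, as 20.0% of all tested genes were, with a log2 change of -0.61 ± 0.15 (adjusted p = 0.0594). Psme3ip1 had a log2 change of 0.035 ± 0.11 (adjusted p = 0.893). The 6 probe sets that carry a proteasome symbol among several had log2 changes between -0.084 and 0.26, and none passed.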

How the data were processed

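The authors deposited 1 table of linear intensity values (signals), 1 per probe set and array, made with MAS5 per the submitters' processing notes. No source used here states the version, the scaling target or the detection calls. MAS5 summarizes each array alone, which leaves dim values noisy, and a mean trimmed by 2% at both ends came to about 500 on all 8 arrays. Array run files served only to find chip lots, scan days and modules. The number of arrays limits the precision.

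Of 15866 probe sets without controls, 12783 carried 1 symbol in the platform annotation, 312 several and 2771 none. From log2(signal + 1), the 9519 probe sets left after the 40% with the lowest mean (signal under 118) were fitted with limma 3.58.1 in R 4.3.3 (variance trend, rat as a block, two-sided, Benjamini-Hochberg over all 9519, threshold 0.05). The labels tie each number to a rat. Deviations from the group means correlated between arrays of the same rat (0.20 to 0.47). The values between rats were at most -0.0083, but deviations cancel out within a group, which makes these values negative on average. Arrays of a rat also shared chip lot and scan day, so rat and batch cannot be told apart here. The most alike arrays correlated at 0.953, so none was a copy. The authors' deposited signals were otherwise used as given.

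Members and gene lists were chosen with earlier results of these data known. Array by array values are given for genes past the threshold, otherwise for the largest rise and fall of a class, and for the catalytic subunits except Psmb6. Pathway genes are named with their signals where they passed. On simulated data with 9519 probe sets the fit recovered 0% of changes of 0.25, 12% of 0.5, 64% of 1 and 94% of 2 on the log2 scale, with 2 false calls of 87. The changed probe sets, 50 per size, were drawn from all 9519 without regard to signal. Class medians were taken over genes in each rat. Alternatives were the block, pseudocount, filter, scaling, variance trend, probe set rule, threshold, chip lot and left-out arrays.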

Additional observations from a re-analysis of the deposited data

Results flagged for a closer look

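In groups of 4, a highest or lowest sample counts as far from the others when its gap to the nearest one takes up more of the range than Dixon's 95% critical value allows. This held for 8 of 86 groups tested, where chance gives about 4.3. In control cultures, rat 4 was lowest in Psma7 (4938, the others 5749.5 to 5844.7) and Psmc2 (5458, the others 5716 to 5731.6) and highest in Psmd10 (527.5, the others 458.7 to 461.6), and rat 1 was lowest in Psmb3 (3478.3, the others 3976.6 to 4060.9). After cadmium, rat 4 was lowest in Psmb1 (6158.3, the others 6887.6 to 7022.1). Among the class medians, rat 4 was lowest in the core particle (0.0022, the others 0.11 to 0.12), highest in the regulatory particle (0.41, the others 0.076 to 0.12) and lowest in core minus regulatory (-0.41, the others -0.0083 to 0.037). Of these 8 values, 7 belonged to rat 4, but they are not separate observations. Core minus regulatory is the difference of the core and regulatory medians, and the medians are taken over genes that were also tested singly.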

How the results depend on the processing

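The count of proteasome genes that rose was 1, and it was 0 with no filter, after quantile normalization, without a variance trend and within chip lot 1 or 2 alone. It was 2 after median centring (Psma5 and Psmc2) and at a threshold of 0.1 (Psma3 and Psmc2). It ranged from 0 to 1 without 1 rat or, with no replicate block, without 1 array, and was 0 without rat 1, 2 or 3. With no replicate block it stayed at 1 (Psmc2, adjusted p = 0.0436), and the count that fell was 0 under each alternative. Over the whole array 272 probe sets rose and 218 fell, a share of 55.5% higher. That share was 63.8% after quantile normalization (284 and 161) and 75.5% after median centring (366 and 119). The count that rose was 156 without a variance trend and 77 within lot 1. The count that fell was 136 with no replicate block, 113 with no filter, 119 after median centring, 105 without a variance trend, 458 at a threshold of 0.1, 10 within lot 1 and 112 within lot 2. Without 1 rat, 121 to 309 rose and 44 to 290 fell. With no replicate block and without 1 array, 122 to 188 rose and 49 to 125 fell. The mean over the 4 rats of the core median was 0.088, and 0.030 after quantile normalization and 0.17 after median centring. Of 18 named genes only Psmc2 had a call to lose, and it kept the call in 8 of 23 alternatives and lost it in 15. The others had not passed, and 2 of their alternative values gained a call. Causes were not tested. Changes of 0.25, larger than those of most genes here, were recovered in 0% of simulated cases. The simulation changed 50 probe sets per size, drawn from tested probe sets of any signal. It therefore does not give the recovery for genes as bright as most of these. It also made 87 calls, where the data gave 490, and the adjusted threshold is stricter with fewer calls. Recovery in the data may therefore differ. A missed threshold alone does not show that a gene was unchanged.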
